A study of Mus musculus with 8 samples.

Results

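The 7 genes described here encode the dual-specificity phosphatases that act on ERK: Dusp1, Dusp2, Dusp4, Dusp5, Dusp6, Dusp7 and Dusp9. They were taken as a whole family, with no member dropped for its values, out of 21154 genes named on the array. Every probe whose RefSeq accession belongs to one of them was used, which gave 7 probes, 1 for each gene and 1 spot for each probe. All 7 were among the 15180 genes tested. Signals were well above background on all 8 arrays for 6 of them, and on 5 of the 8 for Dusp5.

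Growth factors drive RAS, RAF, MEK and ERK in turn, and the final kinase, ERK, is active only while a threonine and a tyrosine in its activation loop both carry phosphate. Dual-specificity MAP kinase phosphatases remove both, and several of their genes are themselves switched on by ERK, so that the pathway limits its own output. DUSP6, DUSP7 and DUSP9 reside in the cytoplasm; DUSP6 in particular prefers ERK. DUSP1, DUSP2, DUSP4 and DUSP5 are nuclear and are made quickly after stimulation; DUSP5 prefers ERK, while DUSP1, DUSP2 and DUSP4 can also act on JNK or p38. In mouse embryonic stem cells, ERK activity moves cells away from self-renewal and towards differentiation.

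The arrays measured total RNA from mouse ES cells kept undifferentiated with LIF, on gelatin and in serum. All 4 groups carried the same background. It included H-Ras-/- and N-Ras-/- and the inducible Cre recombinase RERTert/ert, which 4-hydroxytamoxifen (OHT) activates, and OHT leaves these cells without RAS. The groups were ERF-WT untreated, ERF-WT with OHT, ERF-KO untreated and ERF-KO with OHT, with OHT given for at least 2 days and 2 arrays in each group. ERF is an ETS family repressor that phosphorylation by ERK holds in the cytoplasm, and the series asked what losing RAS does to transcription with and without it. Samples were mixes of 2 clones. The source names tie every OHT sample to an untreated one: A1 and B1 are the ERF-WT pools and A2 and B2 the ERF-KO pools. The labels call the pools biological replicates. Separate cultures or animals are not stated beyond that, so p-values measure the spread between these samples.

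The ERF-KO label was not borne out by the Erf probe in both pools. Erf read 3.45 untreated and 3.92 with OHT in A2, against 4.93 to 5.43 in the 4 wild type arrays, but 5.65 and 5.31 in B2. All such levels are log2 of the processed signal relative to the 75th percentile of the same array. Whether the probe lies in a deleted part of the gene is not known here, so the group is called the labelled knockout. The Hras and Nras probes gave signal on all 8 arrays (2.78 to 3.21 and 0.87 to 2.09) although both alleles are labelled as null, and their place relative to the deleted parts is likewise not known. Some arrays had areas where the median signal of surrounding spots was low. No member's spot lay in one on any array (deviations of -0.16 to 0.15 on the log2 scale), and none was saturated or flagged as an outlier. Slide 1 held 6 arrays and slide 2 both B1 arrays, and 54.0% to 63.6% of spots per array were well above background. All 10 embryonic stem cell markers were well above background on all 8 arrays. Pool A2 stood apart: its summed linear signal of these markers was 370 and 338 times the array's 75th percentile, against 514 to 735 on the other 6 arrays, while the trophoblast sum over 7 of 8 markers was 64.4 and 82.3 against 13.3 to 43.6, and the neuroectoderm sum over 5 of 6 was 10.6 and 10.5 against 2.87 to 5.61. The fibroblast sum over 9 of 10 was 91.4 and 150 in A2 against 36.9 to 79.5. Results below are therefore given pool by pool.

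Upstream sequence is shown first, since ERF and its activating relatives bind a GGAA core. It is given for Dusp6 and Dusp2, whose signals were lower with OHT in all 4 pools, and for Dusp1, whose signals were not. Dusp4 and Dusp9 were also lower in all 4 pools but had no promoter window available. Each run is the 250 bases before the annotated start, 5′ to 3′ on the gene's strand, from RefSeq on build GRCm38.p6. Capitals mark GGAA or its complement TTCC in Dusp6 and Dusp2, and the cAMP response element TGACGTCA in Dusp1.
Dusp6: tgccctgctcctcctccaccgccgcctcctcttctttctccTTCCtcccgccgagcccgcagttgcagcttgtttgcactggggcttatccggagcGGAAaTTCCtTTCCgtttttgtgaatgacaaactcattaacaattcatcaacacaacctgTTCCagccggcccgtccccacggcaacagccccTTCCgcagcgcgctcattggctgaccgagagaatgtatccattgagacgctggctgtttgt
Dusp2: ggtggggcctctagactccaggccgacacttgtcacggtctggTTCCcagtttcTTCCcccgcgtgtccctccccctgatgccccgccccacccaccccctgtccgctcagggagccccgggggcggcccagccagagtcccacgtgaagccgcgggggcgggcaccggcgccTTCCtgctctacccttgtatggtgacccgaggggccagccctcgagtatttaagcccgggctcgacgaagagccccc
Dusp1: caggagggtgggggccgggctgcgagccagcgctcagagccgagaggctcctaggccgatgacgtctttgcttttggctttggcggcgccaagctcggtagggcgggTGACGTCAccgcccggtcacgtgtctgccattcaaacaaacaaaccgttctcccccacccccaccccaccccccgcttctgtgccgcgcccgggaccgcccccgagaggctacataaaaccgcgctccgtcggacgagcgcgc
Dusp6 lies at chr10:99262981-99263230 on the plus strand, Dusp2 at chr2:127335909-127336158 on the plus strand and Dusp1 at chr17:26508473-26508722 on the minus strand. The GGAA core, counted on both strands, was found 6 times before Dusp6, 3 times before Dusp2, 3 times before Dusp5 and 0 times before Dusp1 and Dusp7. So short a motif is common. It was present in 93.4% of 32851 promoter windows of the same length, with a median of 3 matches, and 8.69% of windows held 6 or more. In Dusp6 the pair GGAA and TTCC at -154 to -151 and -149 to -146, counted from the start site, stood 1 base apart, with another TTCC at -144 to -141. The longer ETS site CCGGAAGT, in 2.88% of windows on either strand, was in none of the 5 members with a window. The cAMP response element, in 1.55% of windows, occurred once, before Dusp1 at -143 to -136. The AP-1 site TGANTCA, in 6.75% of windows, was in none, and the E-box CACGTG, in 6.02%, was before Dusp1 and Dusp2 once each. GC content was 56.4% in the Dusp6 window, 70.4% in Dusp2, 68.4% in Dusp1, 64.0% in Dusp5 and 77.2% in Dusp7, with a median of 52.4% over all windows. A match describes letters only, and the arrays did not measure binding.

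**Figure D1:**
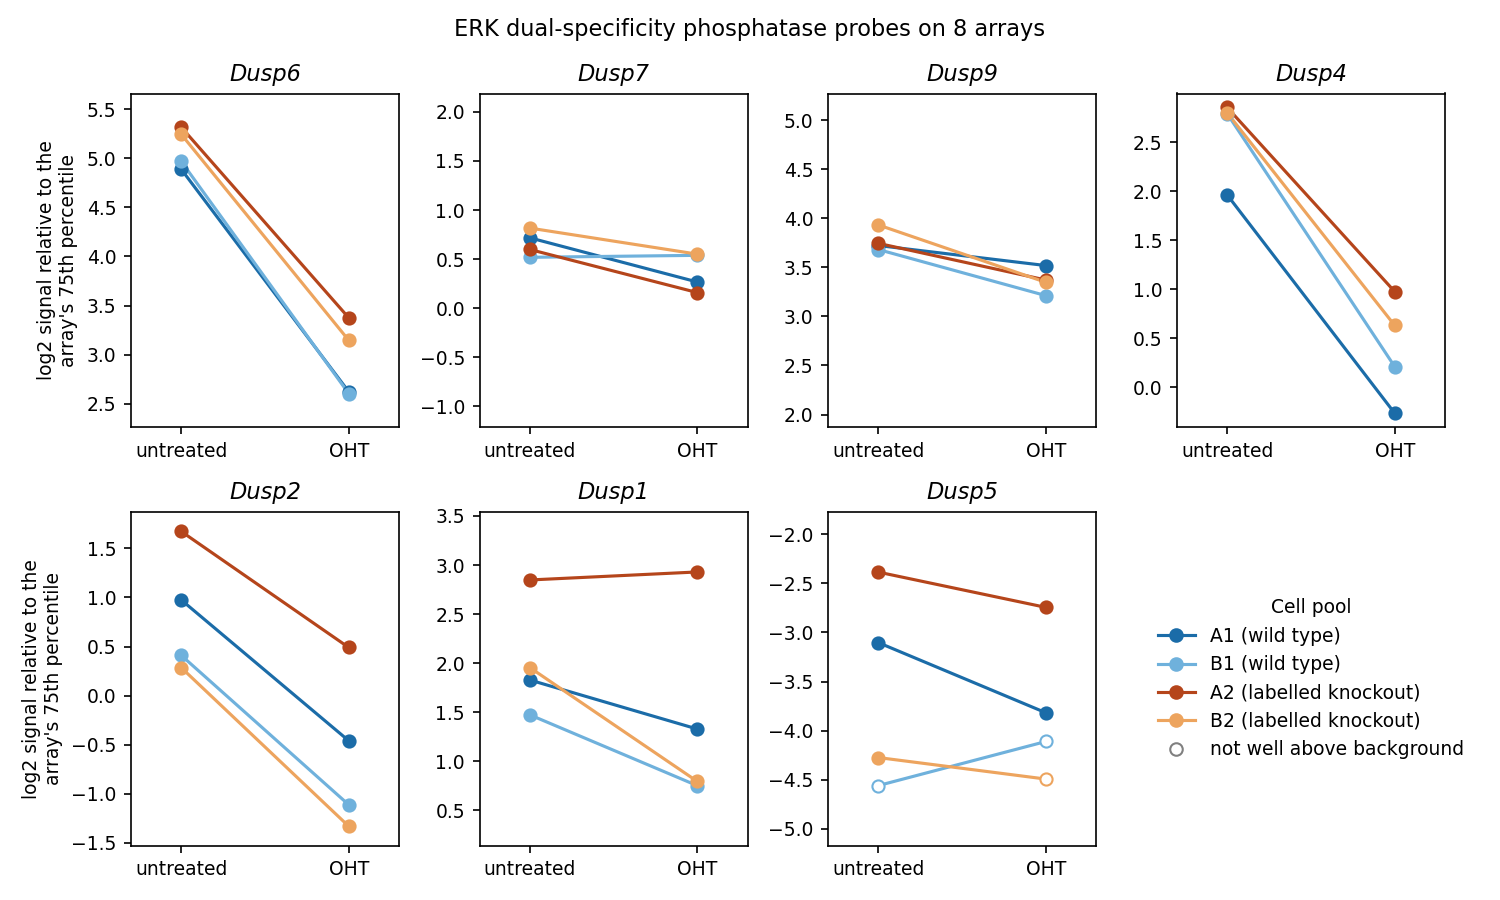
Signal of each member's probe on all 8 arrays, as log2 relative to the array's 75th percentile, with a line joining the untreated and the OHT sample of each cell pool. All panels span the same height, and open circles are spots not well above background. Dusp6 and Dusp4 fell steeply in parallel in all 4 pools, Dusp9 slightly, and the A2 line lay highest for all members but Dusp7 and Dusp9.

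Dusp6, Dusp4 and Dusp2 had the largest decreases of the family with OHT. Averaged over both genotypes, Dusp6 kept 22.2% of its untreated signal, Dusp4 21.6% and Dusp2 36.9%. Dusp9 kept 75.4%. Dusp7, Dusp1 and Dusp5 had estimates below 0 that did not pass. Marker sums of other cell types moved with OHT as well: from untreated to OHT in A1, B1, A2 and B2 the trophoblast sum went from 21.9 to 43.6, 13.3 to 28.3, 64.4 to 82.3 and 14.5 to 19.2 times the 75th percentile, with 4 of 7 markers called higher and 2 lower by the paired fit described next. The fibroblast sum (36.9 to 46.0, 73.9 to 79.5, 91.4 to 150 and 49.1 to 55.9) and the primitive endoderm sum (3.64 to 8.40 untreated, 4.22 to 9.81 with OHT) were also higher with OHT in all 4 pools, with 1 marker of each called higher, and the part of these cells in the members' changes was not tested. The neuroectoderm sum was higher with OHT in B1 (3.41 to 5.00) and B2 (2.87 to 3.92) but not in A1 or A2. The mesoderm sum over 3 of 6 markers was higher in all pools but A1 (5.92 to 5.73). The ES cell sum was higher in all but A2 (370 to 338). Because RNA came from whole pools of cells, fewer cells expressing a gene and less RNA per cell cannot be told apart.

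These statements rest on 2 fits with limma, both adjusted by the Benjamini-Hochberg method over all 15180 genes with a threshold of 0.05. The group-means fit treats the 8 arrays as independent. The paired fit compares OHT with untreated within each pool and uses a variance estimate that is trended with signal and robust to outlying genes; since the same pool was sampled under both conditions, its values stand beside the others. Both arrays of a pool lay on 1 slide, so this fit compares within slides. Over both genotypes the group-means fit called 13 genes, 0.0856% of those tested, and 1 of the 7 members, Dusp6. The paired fit called 3138 genes, 20.7%, and 4 of the 7 members, Dusp6, Dusp4, Dusp2 and Dusp9. All 4 were lower, as were 11.5% of all genes tested. The median change was -0.02 over all genes, on the log2 scale, with 53.1% of them below 0. Of the 15180 genes, 3653 were lower with OHT in all 4 pools and 3131 were higher in all 4.

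Among the cytosolic phosphatases, Dusp6, which reverses ERK activation directly, had the clearest response. Its level went from 4.89 to 2.62 in A1, from 4.97 to 2.60 in B1, from 5.32 to 3.38 in A2 and from 5.25 to 3.15 in B2. All 4 untreated arrays lay above all 4 OHT arrays, with a gap of 1.51 between the lowest untreated and the highest OHT value. How many of all genes separate in this way was not counted, here or for Dusp4 and Dusp9. The processed signals behind the Dusp6 levels were 9697 to 17022 untreated and 2066 to 4187 with OHT. None of them reached the scanner's limit, since 0 spots were saturated on any array. The 4 pools kept 19.4% to 26.01% of the untreated signal. Averaged over genotypes the log2 change was -2.17 ± 0.12 (SE) with an adjusted p of 0.0263 from the group-means fit, the smallest p of all genes tested. The paired fit gave an SE of 0.05, a 95% interval of -2.30 to -2.03 and an adjusted p of 3.9e-04, again first of all genes. With the group-means fit the call depended on single arrays: the adjusted p was 0.224 without A1 untreated, 0.235 without A1 with OHT, 0.166 without B1 with OHT, 0.0924 without A2 untreated and 0.128 without B2 untreated, while the change stayed between -2.23 and -2.11 when any 1 array was left out. On slide 1 alone the group-means change was -2.14 (0.364), and B1 on slide 2 changed by -2.37. In the paired fit Dusp6 passed when any 1 pool was left out (adjusted p of 6.8e-06 to 0.0228).

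Dusp9, the X-linked cytosolic member, showed a much smaller shift. Like 3653 of the 15180 genes tested, it was lower with OHT in all 4 pools. Untreated levels were 3.72 in A1, 3.68 in B1, 3.74 in A2 and 3.93 in B2, and OHT levels 3.52, 3.21, 3.37 and 3.35 in the same order. The untreated and OHT arrays did not overlap, but the gap was only 0.16, less than the range of 0.25 among the untreated arrays. Its change was -0.41 ± 0.13 with an adjusted p of 0.412 in the group-means fit. Dusp9 passed in the paired fit (SE 0.07, 95% interval -0.58 to -0.23, adjusted p = 0.0165). That call was lost when pool A1 (adjusted p = 0.0675) or pool B1 (0.115) was left out.

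Dusp7, the third cytosolic member, did not pass either fit. It went from 0.72 to 0.27 in A1 and from 0.60 to 0.16 in A2, from 0.82 to 0.55 in B2, and from 0.52 to 0.54 in B1. The untreated and OHT arrays overlapped slightly, the lowest untreated value being the one of B1. The averaged change was -0.28 (paired 95% interval -0.54 to -0.03), with adjusted p = 0.107 in the paired fit and 0.693 in the group-means fit.

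**Figure D2:**
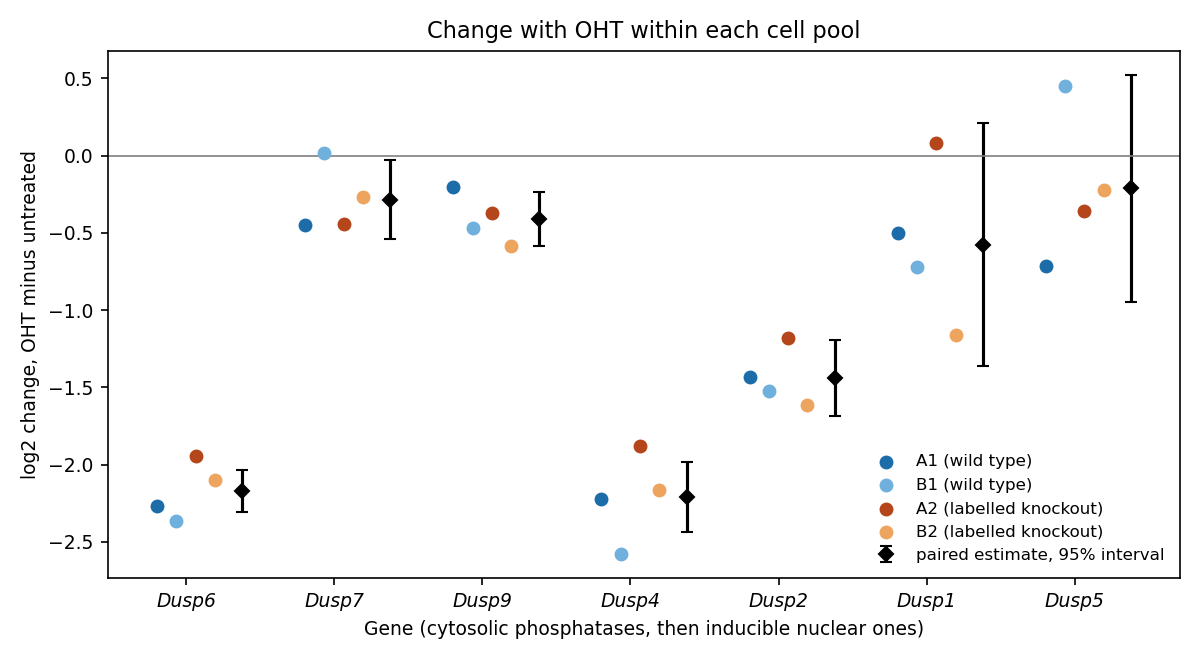
Log2 change from untreated to OHT of each member within each of the 4 cell pools, with the estimate over both genotypes and its 95% interval from the paired fit as a black diamond. Dusp6, Dusp4 and Dusp2 lie between -1.18 and -2.58 in every pool, Dusp9 between -0.20 and -0.58, and Dusp7, Dusp1 and Dusp5 have 1 pool above 0 each.

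Among the nuclear phosphatases, Dusp4, an inducible enzyme that acts on ERK and JNK, changed about as much as Dusp6. It went from 1.96 to -0.26 in A1, from 2.79 to 0.21 in B1, from 2.85 to 0.98 in A2 and from 2.80 to 0.63 in B2. The pools kept 16.7% to 27.2% of the untreated signal, and the groups did not overlap, with a gap of 0.99. A1 was the lowest pool in both conditions, and the other 3 untreated arrays lay between 2.79 and 2.85. The averaged change was -2.21 ± 0.24 with an adjusted p of 0.0773 in the group-means fit, and the paired fit gave an SE of 0.09, a 95% interval of -2.44 to -1.98 and an adjusted p of 7.8e-04. It passed in the paired fit without any 1 pool (adjusted p of 6.5e-05 to 0.0233).

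Dusp2, the nuclear phosphatase first known from activated lymphocytes, fell in every pool, but from levels that differed between pools. It went from 0.98 to -0.46 in A1, from 0.41 to -1.11 in B1, from 1.67 to 0.49 in A2 and from 0.29 to -1.33 in B2. A2 with OHT was thus above the untreated arrays of B1 and B2, and the untreated and OHT arrays overlapped. Within pools the change was more even, between -1.18 and -1.62, and 32.6% to 44.0% of the signal was left. The 2 fits differed accordingly: the averaged change of -1.44 had an SE of 0.52 and an adjusted p of 0.472 from group means, and an SE of 0.10 and an adjusted p of 0.0021 in the paired fit. Leaving out any 1 pool kept it past the threshold in the paired fit (adjusted p of 3.7e-04 to 0.0333).

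Dusp1, an immediate early gene whose product acts on p38 and JNK as well as ERK, was the member whose pools disagreed most. Its level went from 1.83 to 1.33 in A1, from 1.47 to 0.75 in B1 and from 1.96 to 0.79 in B2. In A2 it was the highest of all and did not go down, at 2.85 untreated and 2.93 with OHT. The averaged change was -0.58 (paired 95% interval -1.36 to 0.21) with an adjusted p of 0.227 in the paired fit and 0.806 in the group-means fit. With pool A2 left out, Dusp1 passed the paired fit at -0.89 (adjusted p = 0.0020); with any other pool left out it did not (0.0601 to 0.592).

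Dusp5, the nuclear member most specific for ERK, was close to the detection limit. Only the untreated labelled knockout had both of its arrays well above background at Dusp5, and the gene entered the test through that group. It read -3.10 untreated and -3.82 with OHT in A1 and -2.39 and -2.74 in A2. In B2 it read -4.27 untreated, and was not well above background with OHT (-4.49). Neither B1 array was well above background (-4.56 and -4.11), so the positive difference of 0.45 there has no measured level on either side. The averaged estimate of -0.21 had a paired 95% interval of -0.95 to 0.52 and adjusted p-values of 0.645 in the paired fit and 0.954 in the group-means fit.

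Pool A2 was the highest of the 4 pools in both conditions at Dusp1, Dusp2, Dusp4, Dusp5 and Dusp6, by unequal amounts over B2, the other pool of the labelled knockout. On the log2 scale A2 exceeded B2 by 0.89 untreated and 2.14 with OHT at Dusp1, by 1.39 and 1.82 at Dusp2, and by 1.89 and 1.75 at Dusp5. At Dusp5, B2 with OHT was not well above background, so the 1.75 has no measured level on that side. The same differences were 0.05 and 0.34 at Dusp4 and 0.07 and 0.23 at Dusp6. These are 1 array each and carry no test. The trophoblast, neuroectoderm and ES cell marker sums given above moved with the same pool, and their part in the Dusp1, Dusp2 and Dusp5 levels was not tested.

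The response to OHT was then taken within each genotype. In the wild type the group-means fit called no gene (0%; 905 had an unadjusted p under 0.05), and the paired fit 1458 genes (9.6%), of which 832 were lower (5.48%). The paired fit called 3 of the 7 members, all lower. They were Dusp6 at -2.32 (adjusted p = 0.0011), Dusp4 at -2.40 (0.0027) and Dusp2 at -1.48 (0.0072). In the group-means fit Dusp6 ranked first of all genes at an adjusted p of 0.0872. In the labelled knockout the group-means fit again called no gene (0%; 585 had an unadjusted p under 0.05), and the paired fit 383 genes (2.52%), of which 177 were lower (1.17%). The same 3 members passed: Dusp6 at -2.02 (adjusted p = 0.0036), Dusp4 at -2.02 (0.0118) and Dusp2 at -1.40 (0.0210). Dusp9 did not pass in either genotype, at -0.34 (0.0931, wild type) and -0.48 (0.0689, labelled knockout). These calls borrow the spread of the other genotype's pools. With A1 left out no member passed in either genotype. With B1 left out Dusp6 and Dusp4 passed in the wild type and no member in the labelled knockout.

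A test of the difference itself found no member whose response differed between genotypes. Both fits called 0 of 15180 genes (0% by either; 196 had an unadjusted p under 0.05 from group means). The decrease of Dusp6 was smaller in the labelled knockout by 0.30, with a 95% interval of -0.29 to 0.89 from group means and of 0.02 to 0.57 from the paired fit (adjusted p = 0.804). The Dusp4 difference was 0.38 with a paired interval of -0.07 to 0.83. Dusp2 gave 0.08 (-0.41 to 0.57), an interval that holds differences either way. For Dusp9 it was -0.14 (-0.49 to 0.21) and for Dusp7 -0.14 (-0.64 to 0.37). The intervals of Dusp1 (-1.50 to 1.65) and Dusp5 (-1.63 to 1.31) were the widest.

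Levels were also set side by side between genotypes in the same condition. How many of all genes have both labelled knockout pools above both wild type pools was not counted. No gene passed the group-means fit untreated (0%; 206 had an unadjusted p under 0.05) or with OHT (0%; 334). For Dusp6 both pools of the labelled knockout lay above both wild type pools in either condition. The difference was 0.35 untreated (95% interval -0.06 to 0.77) and 0.65 with OHT (0.23 to 1.07), with adjusted p-values of 1.00 and 0.999. For Dusp4 they were 0.45 untreated (-0.38 to 1.28) and 0.83 with OHT (0.00 to 1.66), again with both labelled knockout pools the highest in each condition. Untreated, however, B2 (2.80) exceeded B1 (2.79) by only 0.0085, while A1 was lower at 1.96. The order of Dusp6 group means was therefore labelled knockout untreated (5.28 ± 0.05, SD, n = 2), wild type untreated (4.93 ± 0.06), labelled knockout with OHT (3.26 ± 0.16) and wild type with OHT (2.61 ± 0.01). Dusp4 had the same order at 2.83 ± 0.04, 2.38 ± 0.59, 0.80 ± 0.24 and -0.03 ± 0.34. Genotype comparisons are between different pools of clones, so genotype and pool cannot be told apart here.

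Other phosphatases and the rest of the ERK pathway give the setting for these values. The lists were chosen with earlier results of these data known, and the changes are averages over both genotypes with calls from the paired fit. The paired fit called 11.5% of all genes lower and 9.17% higher. Of the 3 dual-specificity phosphatases that prefer JNK and p38, 2 rose and 0 fell. Dusp8 rose (adjusted p = 0.0087), with pool changes of 1.42, 2.37, 1.01 and 0.82 in A1, B1, A2 and B2, from a level not well above background in B1 untreated. Dusp16 rose by 0.60 (0.0068), with pool changes of 0.67, 0.99, 0.33 and 0.42. Dusp10 had an estimate of 0.41 and did not pass (0.214), with A1 at -0.23. Neither Dusp8 nor Dusp16 passed in the group-means fit (0.770 and 0.676), and neither passed within the labelled knockout (0.117 and 0.108). Dusp16 did not pass without pool B1 (0.0572), while Dusp8 passed without any 1 pool.

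**Figure D3:**
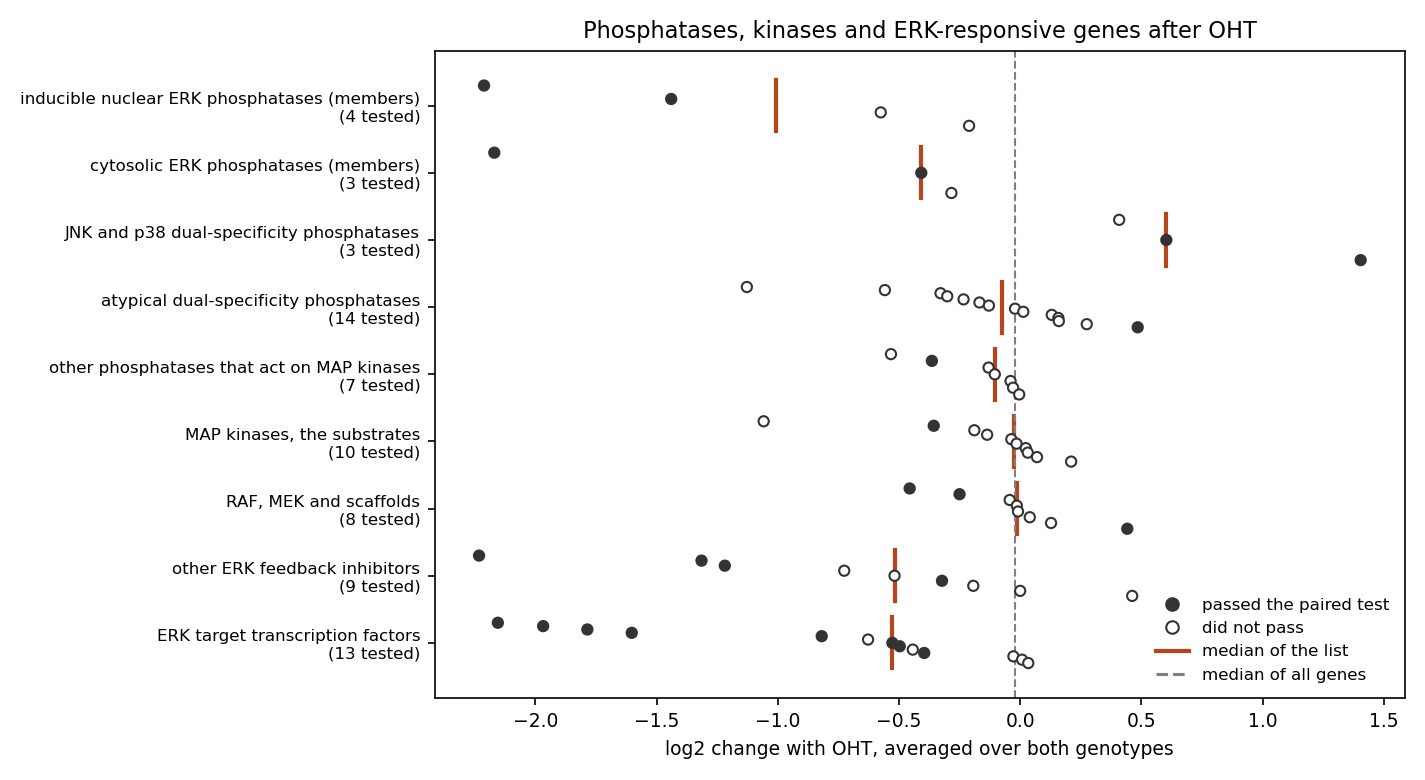
Log2 change with OHT, averaged over both genotypes, of every tested gene in 9 lists; filled points passed the paired test, the short bar is the list's median and the dashed line the median of all genes. ERK phosphatases, other feedback inhibitors and ERK target transcription factors reach to about -2.2, the 3 JNK and p38 phosphatases lie above 0, and the medians of the other phosphatase and kinase lists lie between -0.10 and -0.01, with single genes as low as -1.13.

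The atypical dual-specificity phosphatases, which lack the kinase-docking domain of the members, were listed together with the Slingshot phosphatase genes Ssh1, Ssh2 and Ssh3. This list had a median of -0.08 over 14 tested of 17. Of these 1 rose, Dusp14 by 0.48 (adjusted p = 0.0093, but 0.0858 without pool A1 and 0.0728 without B1), and 0 fell; Dusp28 at -0.33 and Dusp11 at -0.30 did not pass. The estimate of -1.13 for Dusp23, named after its value was seen, rests on A2 with OHT, where its spot lay in an area of low signal. Of 7 tested of 9 other phosphatases that can act on MAP kinases, 1 fell, Ppm1a at -0.36 (0.0278), while Ppp2cb and Ppp2ca, catalytic subunits of PP2A, were at -0.13 and -0.10. Of the 10 kinases these enzymes act on, 1 fell and 0 rose, a share near that of all genes: Mapk12 (p38 gamma) at -0.36 (0.0431), with Mapk10 (JNK3) at -1.06 (0.0543) and Mapk7 (ERK5) at -0.19 (0.0656). Upstream, 2 of 8 genes of RAF, MEK and scaffolds fell, Braf at -0.46 (0.0154) and Lamtor3 at -0.25 (0.0269), and 1 rose, the scaffold gene Iqgap1 at 0.44 (0.0094).

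Among genes known to be switched on by ERK, 12 of the 22 tested fell and 0 rose, against 11.5% and 9.17% of all genes. Of 9 other feedback inhibitors tested, 4 fell and 0 rose, with a median of -0.52. The Spred2 estimate of 0.46 did not pass (0.683) and rests on pool B1. Its pool changes were -0.17, 2.67, -0.20 and -0.45 in A1, B1, A2 and B2. Spry4 (-2.23, adjusted p = 0.0025), Spry2 (-1.31, 0.0021) and Spred1 (-1.22, 0.0026) were among those that fell, all inhibitors of signalling at or above RAF. In the same order their changes were -2.98, -1.77 and -1.59 in the wild type. They were -1.48, -0.86 and -0.85 in the labelled knockout, though no gene passed the test of the difference between genotypes. Of 13 ERK target transcription factors tested, 8 fell and 0 rose, with a median of -0.53, while Fos and Fosb were at 0.01 and 0.03. Among those that fell were the ETS factors Etv1 (-1.60, 7.6e-04) and Etv4 (-1.97, 0.0012) and the immediate early factor Egr1 (-2.15, 0.0027). Etv1 was the one gene of these lists besides Dusp6 that also passed the group-means fit. The 4 nuclear members had a median of -1.01 and the 3 cytosolic ones -0.41, against -0.02 over all genes; with so few genes these medians only describe the values above.

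The genes whose pattern over the 8 arrays was most like each member's were taken by Pearson correlation, as a description that shares arrays, scaling and the OHT effect. For Dusp6 these were Tmem59l (r = 0.992), 1700037C18Rik (0.988) and Pde2a (0.986), a phosphodiesterase gene, and for Dusp4 E2f8 (0.990), Lysmd2 (0.984) and Cdkn2aipnl (0.982). Dusp4 and Dusp6 correlated at 0.980, and Dusp6 stood 4th among 15080 genes ranked by likeness to Dusp4. For Dusp2 they were Pou3f1 (0.994), a transcription factor of primed pluripotent and neural cells, the amino acid transporter gene Slc38a2 (0.992) and Neurod1 (0.992), a neuronal factor that is also on the neuroectoderm list. All 3 share the high A2 and low B2 levels of Dusp2. Pou3f1 went from 3.74 to 1.60 in A1, 3.07 to 0.90 in B1, 4.44 to 2.79 in A2 and 2.64 to 0.79 in B2. For Dusp1 they were Adamts1 (0.982), Rab15 (0.977) and Slc38a4 (0.973), each with its highest values in both A2 arrays. Those nearest to Dusp7 were Cdca8 (0.979), Prpf4b (0.968) and Nobox (0.963), and to Dusp9 Mrc1 (0.964), Rrp12 (0.955) and Cfap298 (0.954). Among members, Dusp2 was closer to Dusp1 (0.845) than to Dusp6 (0.796) or Dusp4 (0.745), and Dusp1 correlated with Dusp6 at 0.514.

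**Figure D4:**
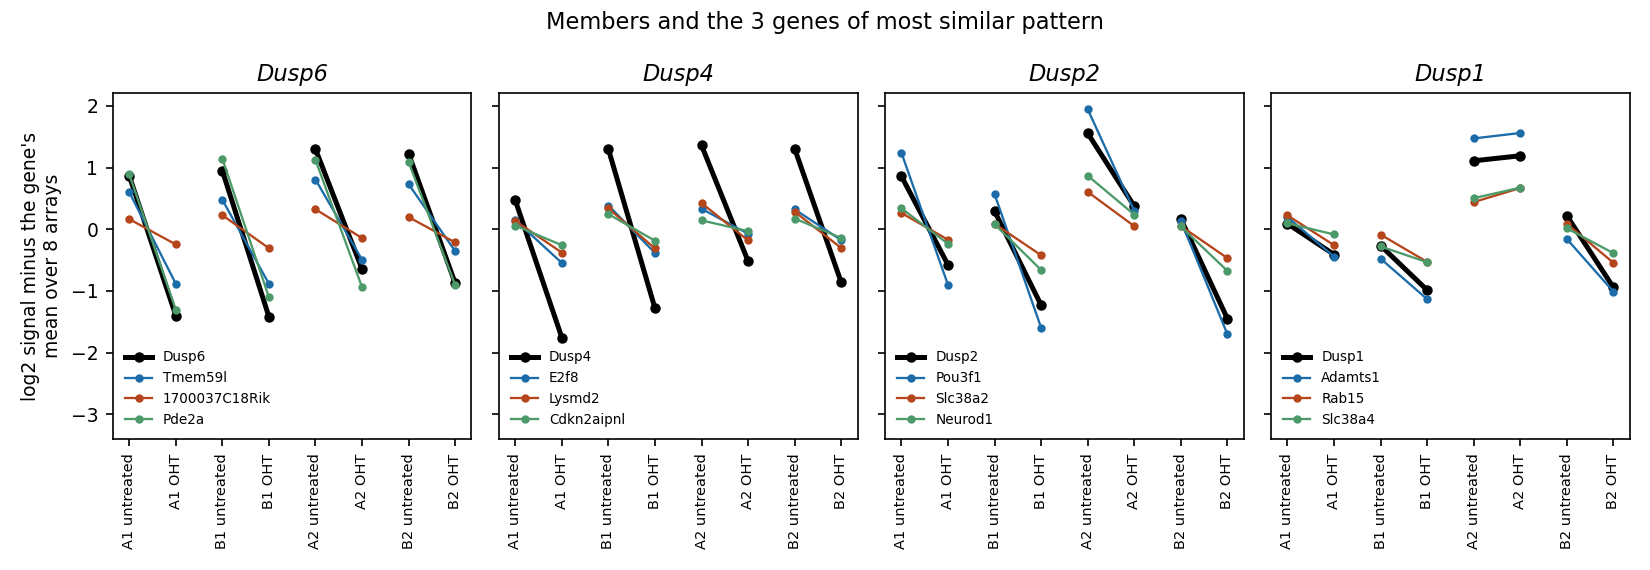
Log2 signal of Dusp6, Dusp4, Dusp2 and Dusp1 and of the 3 genes most correlated with each, minus each gene's own mean over the 8 arrays; lines join the untreated and OHT arrays of a pool. Dusp6 and Dusp4 separate by OHT in every pool, whereas Dusp1 and its neighbours separate pool A2 from the others.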

How the data were processed

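Cy3-labelled total RNA of 8 ES cell samples was put on 1 single-colour array a sample, per the labels. The deposited spot intensity values had background subtracted by Agilent's Feature Extraction software, version 11.5.1.1 per the file headers; other deposited columns used are 0 or 1 flags for control, outlier, saturated and well-above-background spots. The authors' normalization between arrays and their tests are not stated in the labels or headers. The deposited value table was not used.

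Of 62976 spots per array, 59305 non-control spots gave 55681 probes, and flagged outliers were left out. RefSeq accessions named 28026 probes for 21154 genes through a table of assembly GRCm38.p6. Processed signal was put on a log2 scale relative to the array's own 75th percentile. A gene was tested, 15180 in all, where both arrays of some group had its probe well above background, and the probe of highest mean was kept. The precision is limited by 2 arrays a group.

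Differences were tested, two-sided, with limma 3.58.1 in R 4.3.3 (lmFit, eBayes) on 4 group means (4 residual degrees of freedom), with Benjamini-Hochberg adjustment and a threshold of 0.05. The paired fit adds the pool as replicate block (2 residual degrees of freedom) with trended and robust variance. The pairing comes from the source names. Deviations of paired arrays from their group means correlated at 0.658 (ERF-WT) and 0.443 (ERF-KO), against 0.226 to 0.508 for arrays of different genotype. The ERF-KO value lies within that range. The ERF-WT pools lay on different slides, so pool and slide cannot be told apart there, and these correlations do not settle the pairing. For differences between genotypes, the estimates come from different pools. Alternatives were normexp background (offset 50), quantile normalization, other filters, the mean of a gene's probes, array weights, slide as block, slide 1 only, areas of low signal left out (median of an 11 by 11 spot window below -0.5), and leaving out each array. Leaving out each pool in the paired fit was added after seeing the data.

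The members and gene lists were chosen with earlier results of these data known. Named genes are the members, up to 3 genes of smallest p in each list, the 3 JNK and p38 phosphatases, and for each member measured on all arrays the 3 genes of highest correlation. Spred2, Fos, Fosb and Dusp23 were named outside this rule, with their values known. Tables were made in Python 3.11.15 with pandas 2.3.3, numpy 2.4.6 and scipy 1.17.1, and figures with matplotlib 3.10.9. Some values of genes outside the family are not reported here.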

Additional observations from a re-analysis of the deposited data

How the results depend on the processing

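Dusp6, Dusp4, Dusp2 and Dusp9 kept the sign of their OHT change in each genotype and on average under all alternatives run; calls did not. With the pool as replicate block, the count of members called was 3 on average over genotypes, 3 in the wild type (with trended and robust variance), 3 in the labelled knockout (same) and 4 on average (same); with the block alone no member passed within a genotype. Leaving areas of low signal out of that paired fit gave 3, 4 and 4 members in the wild type, labelled knockout and average. Without a block, the average count of 1 became 2 with normexp or only probes well above background on all arrays, and 0 without a filter on dim probes, with a slide block or on slide 1 only; leaving out 1 array gave 0 to 2. The wild type count of 0 became 1 with that stricter filter, with trended and robust variance or with array weights, and the labelled knockout count ranged from 0 to 1 on leaving out 1 array. Leaving out pool A1, B1, A2 or B2 in the paired fit gave 3, 3, 5 and 4 members on average, 0, 2, 5 and 5 in the wild type and 0, 0, 4 and 3 in the labelled knockout. Calls over all genes moved likewise, at 453, 536, 3484 and 4029 on average, 0, 113, 2848 and 2795 in the wild type and 0, 0, 624 and 1338 in the labelled knockout. The comparisons between genotypes gave 0 members under every alternative run. The causes of these moves were not tested.

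Directions turned only for values that had not passed. For the OHT change, leaving out 1 array gave Dusp5 -0.86 to 0.60 in the wild type, -1.23 to 0.66 in the labelled knockout and -0.68 to 0.26 on average, and Dusp1 -1.61 to 0.53 in the labelled knockout. Quantile normalization gave Dusp5 0.074 in the wild type. Paired without A1, Dusp5 was 0.45 in the wild type and 0.080 on average and Dusp7 0.020 in the wild type; without B2, Dusp1 was 0.082 in the labelled knockout. For the difference of effects, leaving out 1 array gave -0.996 to 1.14 for Dusp1, -0.83 to 0.99 for Dusp2, -0.034 to 0.79 for Dusp4, -1.10 to 0.79 for Dusp5, -0.33 to 0.058 for Dusp7 and -0.30 to 0.011 for Dusp9. Slide 1 only and the paired fit without B1 each gave -0.040 for Dusp1, 0.43 for Dusp5 and 0.10 for Dusp7; the paired fit without A2 gave -0.55 for Dusp1 and -0.14 for Dusp2; normexp gave 0.33 for Dusp5. Between genotypes untreated, leaving out 1 array gave -0.41 to 0.98 for Dusp2, -0.44 to 1.45 for Dusp5 and -0.020 to 0.20 for Dusp7. A slide block gave -0.018 for Dusp2, slide 1 only -0.23 for Dusp5 and -0.0097 for Dusp7, and normexp -0.14 for Dusp5. After OHT, leaving out 1 array gave -0.25 to 1.89 for Dusp1, -0.55 to 1.28 for Dusp2, -0.53 to 1.22 for Dusp5, -0.24 to 0.15 for Dusp7 and -0.16 to 0.15 for Dusp9. A slide block gave -0.092 for Dusp5, slide 1 only 0.088 for Dusp7, and Dusp9 was 0.064 with normexp and 0.0045 with quantile normalization.

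Signal over background limits Dusp5, which was not well above background on 3 of 8 arrays. The 2 arrays a group, 1 probe a gene and the mix of 2 clones in each pool limit the rest, and how far a probe's signal follows its transcript's amount was not measured.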
